A study of Mus musculus with 2 samples.

Results

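The genes described here encode the pore-forming alpha1 subunits of voltage-gated calcium channels, in RNA from mouse cerebellum at postnatal day 7. They are 8 of the 19503 genes with a value, taken by their symbols in the platform annotation, and each is measured by 1 probe set. They comprise Cacna1a (P/Q-type), Cacna1b (N-type), Cacna1c and Cacna1d (L-type), Cacna1e (R-type), and Cacna1g, Cacna1h and Cacna1i (T-type). The TRAP sample (1 array) is RNA eluted from beads that captured tagged ribosomes, and the unbound sample (1 array) is RNA that the beads did not take up. Both came from pooled cerebella of Tg(Pcp2-L10a-Egfp) mice, in which the promoter of the Purkinje cell gene Pcp2 drives ribosomal protein L10a joined to a green fluorescent protein. All animals of both samples therefore carry the tag. No wild-type or bead-only control was analysed here, and neither the number of pooled animals nor whether both samples came from 1 pool is given in the sources used here.

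Voltage-gated calcium channels open when the membrane depolarises, and their alpha1 subunit forms the pore, the voltage sensor and the binding sites for most blockers. High-voltage-activated channels of the P/Q, N, L and R types need strong depolarisation and assemble with beta and alpha2delta subunits, whereas T-type channels open near the resting potential. Purkinje cells gave the P-type current its name: CaV2.1, encoded by Cacna1a, carries most of their high-threshold calcium current, and T-type channels contribute to their dendritic spikes. N-type and R-type channels act beside P/Q-type channels at many presynaptic terminals, among them those of granule cells. L-type channels couple electrical activity to gene transcription in many neurons.

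Among the pore genes, Cacna1g was the only one at least 2-fold higher in TRAP than in unbound, at 2.35-fold. Cacna1a had nearly equal values on both arrays. Cacna1b, Cacna1c, Cacna1d and Cacna1e were each lower in TRAP, by 2.76-fold to 4.24-fold. Both ends of that range, Cacna1d and Cacna1c, rest on TRAP values under the floor of 7.08, so the sizes are uncertain, while Cacna1b and Cacna1e were 2.94-fold and 3.51-fold lower with every value above it. Cacna1h and Cacna1i had low values on both arrays. Each fraction was measured on 1 array, so nothing checks these differences between replicates: no test was run, no gene has an error, and 2-fold is a rule of size only.

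Values are log2 expression values, and the difference is the TRAP value minus the unbound value. A floor was set at 7.08, the median over every probe set value of both arrays, and a gene passed it if either array did; the deposited table gives no detection calls. Among the 10524 genes that passed, 8.11% reached a 2-fold difference with TRAP higher, and 18.6% reached one with unbound higher. These shares were 16.4% and 11.6% when each array's median was taken off, and 12% and 13.7% after quantile normalization, whereas the counts of pore genes were the same under both. Of the 8 pore genes, 6 lay above the floor. Of these, 1 reached 2-fold with TRAP higher and 4 reached it with unbound higher. Their median difference was -1.51, against -0.13 over all genes above the floor. Cacna1c and Cacna1d passed the floor only through unbound, which fixes their direction, and both the 4 and the -1.51 include them. When a gene's average over the arrays had to exceed 7.08 instead, 5 pore genes passed. Of those, 1 reached 2-fold with TRAP higher and 3 with unbound higher, and the median difference was -1.56. Over all 8 pore genes, with no floor, it was -1.05, against 0.10 over all 19503 genes.

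**Figure D1:**
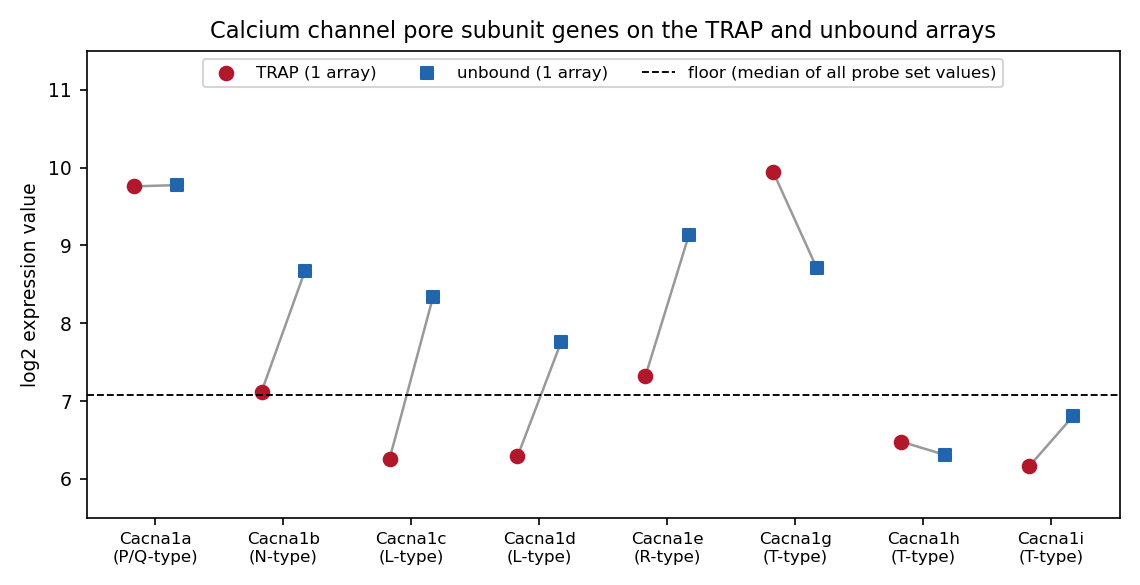
Log2 expression values (y axis) of the 8 pore subunit genes (x axis, with channel type) on the TRAP array (circles) and the unbound array (squares), 1 array each and so no error bars; the dashed line is the floor at 7.08. Cacna1g is higher in TRAP, Cacna1a is level, and Cacna1b, Cacna1c, Cacna1d and Cacna1e are lower in TRAP, with Cacna1c and Cacna1d below the floor there.

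The purification itself is visible in other genes. Pcp2 was 2.52-fold higher in TRAP (12.98) than in unbound (11.65), and the unbound value was still well above the floor. Rpl10a, the gene of ribosomal protein L10a, was 1.45-fold higher in TRAP (12.67) than in unbound (12.13), short of 2-fold. Each of the 15 Purkinje cell markers with a value favoured TRAP, 9 by 2-fold or more, and their differences ranged from 0.49 for Pcp4 to 3.17 for Gng13, around a median of 1.05. Of 70 markers of other cell types above the floor, 0 reached 2-fold with TRAP higher and 54 reached it with unbound higher. With the array medians subtracted these were 3 and 48 of 68. Some of these markers had TRAP values under the floor and passed it only through unbound, which fixes their direction. The array medians were 6.92 for TRAP and 7.25 for unbound.

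The promoters of the genes that were lower in TRAP are shown because these genes shared a direction and because Cacna1c and Cacna1d each have several starts, which 1 probe set per gene does not separate. RefSeq (GRCm38.p6) start sites were at hand for 5 of the 8 genes, with 8 windows in all. The windows of Cacna1i and of the downstream Cacna1c start are not printed. Entries for Cacna1a, Cacna1g and Cacna1h were not used here. Each line gives the 250 bases before a start, 5′ to 3′ on the gene's strand. Capitals mark matches on either strand, overlaps included, to GGGCGG, which is the core of Sp1 sites and is called a GC box. They also mark TATAAA, the letters of the TATA box, a core promoter element. Matches were taken anywhere in the 250 bases, so a marked stretch need not be that element.
Cacna1b, chr2:24763153-24763402, minus strand: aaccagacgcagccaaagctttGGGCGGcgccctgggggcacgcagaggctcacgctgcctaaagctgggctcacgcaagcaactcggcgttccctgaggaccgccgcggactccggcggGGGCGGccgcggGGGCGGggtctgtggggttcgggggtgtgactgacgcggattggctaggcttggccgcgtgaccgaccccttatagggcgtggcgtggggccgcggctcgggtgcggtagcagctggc
Cacna1c upstream start, chr6:119196410-119196659, minus strand: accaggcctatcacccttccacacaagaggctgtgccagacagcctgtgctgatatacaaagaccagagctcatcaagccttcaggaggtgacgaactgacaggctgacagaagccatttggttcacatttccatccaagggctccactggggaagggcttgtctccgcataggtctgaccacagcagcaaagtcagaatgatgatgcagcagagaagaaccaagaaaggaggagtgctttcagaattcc
Cacna1c middle start, chr6:119108496-119108745, minus strand: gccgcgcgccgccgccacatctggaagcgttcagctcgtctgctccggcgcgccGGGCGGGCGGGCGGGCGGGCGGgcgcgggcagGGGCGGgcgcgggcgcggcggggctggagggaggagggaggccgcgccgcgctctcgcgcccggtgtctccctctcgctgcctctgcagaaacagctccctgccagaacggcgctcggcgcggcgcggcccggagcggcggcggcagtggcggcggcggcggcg
Cacna1d upstream start, chr14:30491157-30491406, minus strand: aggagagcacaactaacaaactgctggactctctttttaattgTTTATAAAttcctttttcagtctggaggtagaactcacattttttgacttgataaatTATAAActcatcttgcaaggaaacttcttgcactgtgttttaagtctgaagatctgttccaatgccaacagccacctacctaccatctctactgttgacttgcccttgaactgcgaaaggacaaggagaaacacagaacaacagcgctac
Cacna1d downstream start, chr14:30353487-30353736, minus strand: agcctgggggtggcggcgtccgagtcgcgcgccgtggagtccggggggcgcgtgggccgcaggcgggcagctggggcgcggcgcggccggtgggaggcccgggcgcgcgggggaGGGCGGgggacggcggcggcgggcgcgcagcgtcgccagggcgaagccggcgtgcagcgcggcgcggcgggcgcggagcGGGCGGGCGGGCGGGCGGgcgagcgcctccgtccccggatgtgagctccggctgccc
Cacna1e, chr1:154725921-154726170, minus strand: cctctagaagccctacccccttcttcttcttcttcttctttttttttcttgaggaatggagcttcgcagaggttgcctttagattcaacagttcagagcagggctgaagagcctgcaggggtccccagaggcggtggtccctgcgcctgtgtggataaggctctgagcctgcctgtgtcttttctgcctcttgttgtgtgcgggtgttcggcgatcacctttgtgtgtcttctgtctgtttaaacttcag

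The windows of these 4 genes had no common base composition. GC content was 72% in the Cacna1b window, with 29 CpG dinucleotides and 3 GC boxes. The middle start of Cacna1c had 82.8% GC, 48 CpG and 6 GC boxes, while its upstream start had 51.6% GC, 2 CpG and no GC box. The downstream start of Cacna1c, not printed, had 50.4% GC, 5 CpG and no GC box. Cacna1d likewise had a GC-rich window, with 86.4% GC and 5 GC boxes at the downstream start. Its upstream start had 39.6% GC, no GC box and 3 TATAAA matches. Those in the stretch TTTATAAA overlap on opposite strands. The Cacna1e window had 52% GC and neither motif. Over all 32851 promoter windows of this length the median GC content was 52.4%, 32.7% held a GC box and 12.4% held TATAAA. The E-box CAGCTG, a sequence that neuronal basic helix-loop-helix factors can bind, was found in 2 of the 8 windows (Cacna1b and the downstream start of Cacna1d) and in 13% of all promoters. AGGTCA, the half-site of the orphan receptor ROR alpha, was in none of the 8 and in 14% of all promoters. A match is a run of letters in these windows and not a measured binding site.

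Cacna1a, the P/Q-type pore gene whose loss of function causes ataxia in mice, read 9.76 in TRAP and 9.77 in unbound. The difference was -0.016, and 55.1% of the genes above the floor had a lower one. Every one of the 15 Purkinje markers had a larger difference than Cacna1a. In contrast, all 15 granule neuron markers above the floor had a smaller one. The sign of this small difference depends on the scaling: it was 0.31 with the array medians subtracted, 0.071 after quantile normalization and 0.0070 with a loess trend removed. It stayed short of 2-fold in each.

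Cacna1g encodes CaV3.1, the T-type pore known to be prominent in Purkinje cells. It read 9.94 in TRAP and 8.71 in unbound, both above the floor, a difference of 1.23. Of all genes above the floor, 4.67% had a larger difference. Among the Purkinje markers, 8 had a smaller difference than Cacna1g and 7 a larger one, so it sat near the middle of that list. The gap between Cacna1g and Cacna1a was 1.25 on the log2 scale.

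The other T-type genes could not be placed. Cacna1h, encoding CaV3.2, read 6.48 in TRAP and 6.31 in unbound, a difference of 0.17. Cacna1i, encoding CaV3.3, read 6.16 in TRAP and 6.80 in unbound, a difference of -0.64. All 4 of these values lie under the floor, where the table does not say whether a transcript was detected. No fold is read from them.

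**Figure D2:**
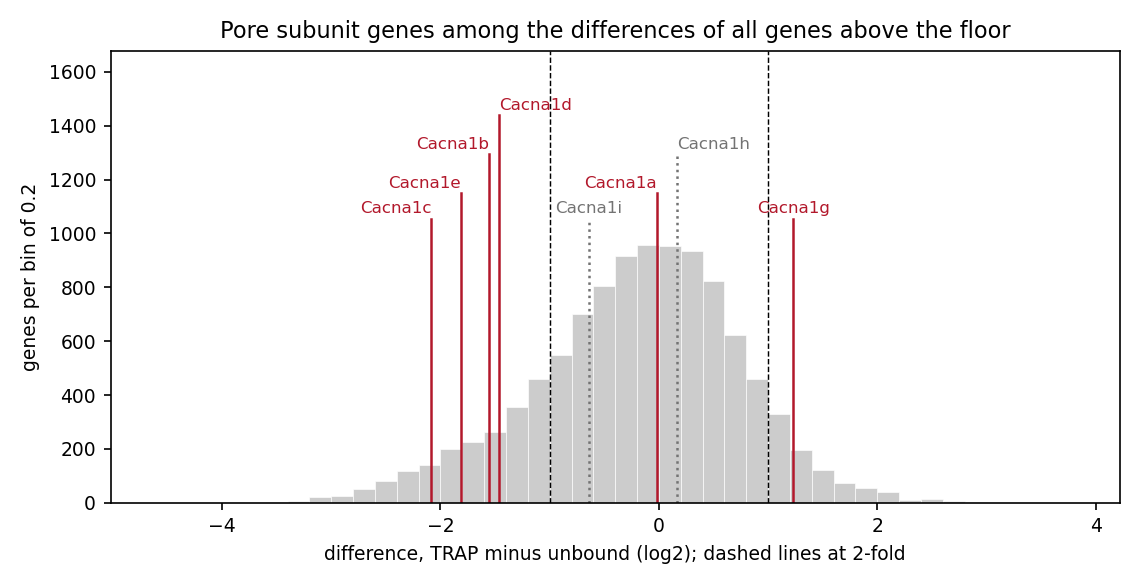
Number of genes (y axis, bins of 0.2) by difference, TRAP minus unbound on the log2 scale (x axis), for the 10524 genes above the floor, with vertical lines for the pore genes (solid above the floor, dotted below it; line heights carry no value) and dashed lines at 2-fold. Cacna1g lies in the upper tail, Cacna1a near the centre, and Cacna1b, Cacna1c, Cacna1d and Cacna1e in the lower tail.

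The L-type genes gave the largest and the smallest of the 4 lower values. Cacna1c, encoding CaV1.2, read 6.26 in TRAP and 8.34 in unbound, a difference of -2.08 and the lowest of the family. Only 3.76% of the genes above the floor had a lower difference. Cacna1d, encoding CaV1.3, an L-type channel that opens at more negative potentials than CaV1.2, read 6.29 in TRAP and 7.75 in unbound, a difference of -1.47. For both genes the TRAP value lay under the floor and the unbound value above it, so the size of these folds is uncertain. Cacna1f and Cacna1s, the L-type pore genes of retina and skeletal muscle, are not among the 8 and stayed under the floor on both arrays, with 5.08 and 5.67 in TRAP and 4.91 and 5.63 in unbound.

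The N- and R-type pore genes Cacna1b and Cacna1e were lower in TRAP too, with all 4 of their values above the floor. Cacna1b, encoding the N-type pore CaV2.2, read 7.12 in TRAP and 8.68 in unbound, a difference of -1.56 or 2.94-fold. Its TRAP value was just above the floor. Cacna1e, encoding the R-type pore CaV2.3, read 7.32 in TRAP and 9.13 in unbound, a difference of -1.81 or 3.51-fold. The 4 lower genes spanned 0.62 on the log2 scale, and without replicates their order among themselves is not established. Levels of different genes come from different probes and were not ranked.

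The scaling of the arrays shifted these differences without moving any of the 5 genes past 2-fold across that line. Cacna1g ran from 1.23 as deposited to 1.56 with the array medians subtracted. Cacna1c ran from -2.08 as deposited to -1.75 with the medians subtracted, and Cacna1d, the nearest to the line, from -1.47 to -1.14. Cacna1b and Cacna1e came to -1.22 and -1.48 with the medians subtracted. The same step moved the median of all genes above the floor to 0.25, against -0.13 as deposited.

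**Figure D3:**
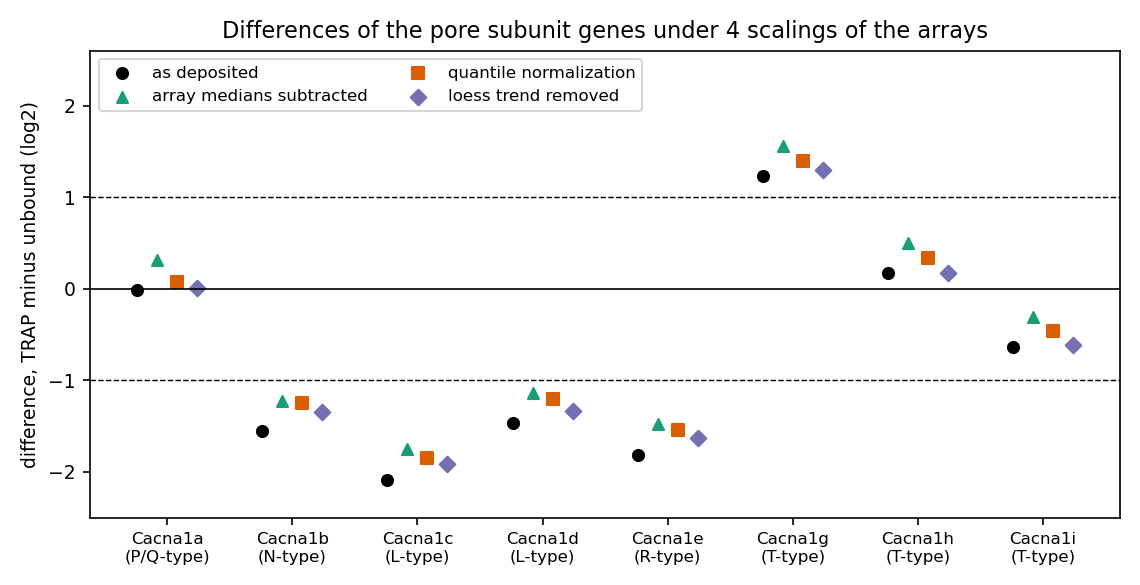
Difference, TRAP minus unbound on the log2 scale (y axis), of the 8 pore genes (x axis, with channel type) as deposited and under 3 other scalings of the arrays, with dashed lines at 2-fold. Cacna1g stays above 1 and Cacna1b, Cacna1c, Cacna1d and Cacna1e stay below -1 in each, while Cacna1a stays near 0.

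The N-, L- and R-type genes sat among the markers of cells other than Purkinje cells. Granule neuron markers had a median difference of -1.69 (13 of 15 past 2-fold with unbound higher), and the mean log2 level of the 16 measured was 8.93 in TRAP and 10.6 in unbound. Astrocyte and Bergmann glia markers had a median of -2.07 (9 of 12), with a mean level of 8.44 in TRAP and 10.3 in unbound. Of these 12, 2 were higher in TRAP, by up to 0.93, and both passed 2-fold with the array medians subtracted. Inhibitory interneuron markers had a median of -1.47 (4 of 6), and the mean level of the 8 measured was 7.20 in TRAP and 8.34 in unbound. Of the 6 above the floor, Lhx1 alone was higher in TRAP, at 0.97, and Purkinje cells also express it.

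The remaining lists also had negative medians, and some of their markers passed the floor only through unbound. Oligodendrocyte lineage markers had a median of -1.85 (10 of 10), granule progenitor and cell cycle markers -2.26 (9 of 12), and unipolar brush and nuclear neuron markers -2.58 (3 of 3). Among those above the floor, microglia markers had a median of -1.59 (2 of 3), choroid plexus markers -0.81 (1 of 3) and vascular markers -1.30 (3 of 6). Both microglia markers past 2-fold had TRAP values under the floor. With the array medians subtracted the choroid plexus median was -0.48. Of the 15 granule neuron markers above the floor, 6 had a lower difference than Cacna1c, 7 a lower one than Cacna1e, 8 a lower one than Cacna1b and 9 a lower one than Cacna1d. The part of these cell types in the values of the 4 genes was not tested. The unbound fraction also held Purkinje cell RNA, as Pcp2 read 11.65 there. In such bulk samples, the shares of Purkinje cells and of other cell types in a value cannot be told apart.

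**Figure D4:**
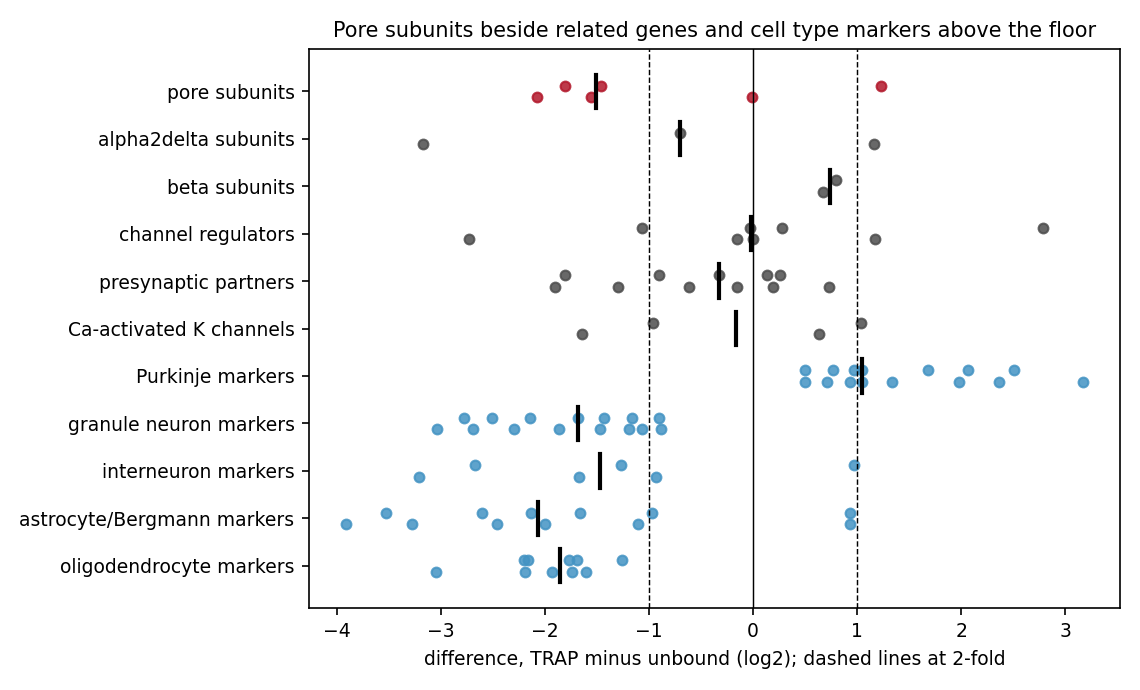
Difference, TRAP minus unbound on the log2 scale (x axis), of each gene above the floor (points, vertical offset only for clarity) in the pore subunit family, 5 related lists and 5 marker lists (y axis), with a bar at each list's median and dashed lines at 2-fold. Cacna1g lies within the range of the Purkinje markers, and the 4 lowest pore genes lie within the range of the granule neuron markers.

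Genomic span moved with the difference as well. Across 10516 genes above the floor with a RefSeq span (GRCm38.p6), the Spearman correlation between span and difference was -0.25, and genes are not independent replicates. Across the 8 pore genes, which share the same pair of arrays, it was -0.86. Unlike the wider set, these include Cacna1h and Cacna1i, which lie under the floor and from which no fold is read. The value of -0.86 also rests on the order of Cacna1b, Cacna1c, Cacna1d and Cacna1e, which is not established. It is therefore a description only and is not matched to the -0.25. Cacna1h and Cacna1g are the shortest, at 62.1 and 66.0 kb, and Cacna1c, Cacna1e and Cacna1d the longest, at 610, 494 and 451 kb. Cacna1i, Cacna1b and Cacna1a span 111, 159 and 302 kb.

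Set against genes above the floor of similar span (within 1.5 times), the 4 lower genes stood out less than among all genes. For Cacna1c, 9.60% of 198 such genes had a lower difference, against 3.76% of all genes above the floor. For Cacna1e the share was 16.1% of 261 genes, against 6.08% of all. For Cacna1b it was 14% of 985, against 8.87% of all, and for Cacna1d 21.0% of 295, against 9.93% of all. Of the 253 genes above the floor that span 400 kb or more, the class of Cacna1c, Cacna1d and Cacna1e, 34.4% reached 2-fold with unbound higher. For Cacna1g, 3.42% of 1870 genes of similar span had a larger difference, and their median was -0.40. The part of span in these values was not tested. For Cacna1a, 36.5% of 488 genes had a larger difference, and their median was -0.39.

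**Figure D5:**
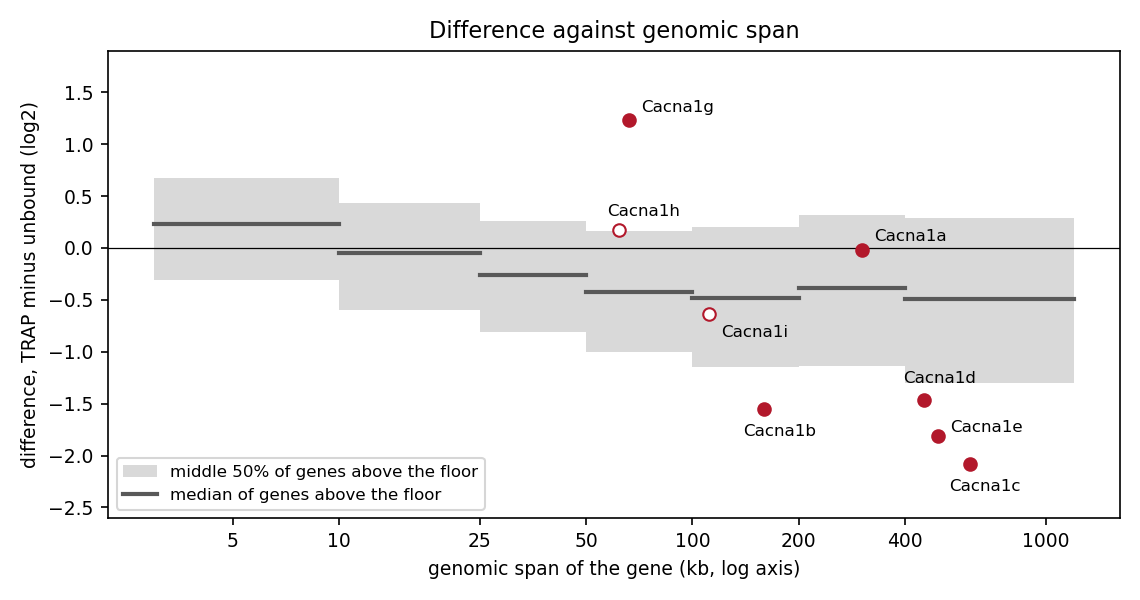
Difference, TRAP minus unbound on the log2 scale (y axis), against genomic span in kb (log x axis) for the 8 pore genes (filled circles above the floor, open circles below it), over the median (line) and middle 50% (band) of all genes above the floor in 7 span classes; the outermost classes are open-ended and drawn to the edge. Cacna1g lies above the band of its class, Cacna1b, Cacna1c, Cacna1d and Cacna1e below theirs, and Cacna1a inside it.

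Subunits that assemble with the high-voltage pores did not share 1 direction. Of 3 alpha2delta genes above the floor, Cacna2d2 read 9.78 in TRAP and 8.62 in unbound, a difference of 1.16, while Cacna2d1 and Cacna2d3 differed by -3.17 and -0.71. Cacna2d1 read 5.23 in TRAP, under the floor, so the size of its difference is uncertain. The beta subunit genes with a value were Cacnb4, at 11.64 in TRAP and 10.85 in unbound, and Cacnb1, at 10.10 in TRAP and 9.43 in unbound, with neither 2-fold apart. With the array medians subtracted Cacnb4 and Cacnb1 differed by 1.13 and 1.00.

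Regulators of the channels ranged widely. Of 8 genes above the floor, 2 passed 2-fold with TRAP higher and 2 with unbound higher, against 8.11% and 18.6% of all genes above it. The median of the 8 was -0.016, or 0.31 with the array medians subtracted and 0.071 after quantile normalization. Stac and Stac2, adaptors that bind L-type channels and slow their calcium-dependent inactivation, were 6.88-fold and 2.26-fold higher in TRAP. Rem2, a small GTPase that inhibits high-voltage channels, read 5.83 in TRAP, under the floor, and 8.56 in unbound, and Akap5, an anchoring protein that ties kinases and phosphatases to L-type channels, differed by -1.07, or by -0.74 with the array medians subtracted and -0.93 after quantile normalization. Of 11 genes for presynaptic proteins that work with P/Q- and N-type channels, 0 passed 2-fold with TRAP higher and 3 with unbound higher. The shares over all genes above the floor were again 8.11% and 18.6%. With the array medians subtracted the counts were 1 and 2, against 16.4% and 11.6% of all genes. The median of the 11 was -0.32, or 0.0068 with the array medians subtracted. Rims1, encoding an active zone scaffold, and Erc1 were lowest, at -1.90 and -1.81. Rimbp2, encoding a protein that links calcium channels to Rims proteins, and Erc2 were highest, at 0.73 and 0.26. Rimbp2 passed 2-fold, at 1.06, with the medians subtracted or after quantile normalization.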

How the data were processed

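RNA of the TRAP and unbound samples went onto 1 whole-transcript mouse array (Affymetrix) each, per the labels' protocols. The authors deposited log2 values, 1 for each probe set on each array. Affymetrix Power Tools was used, per the submitters' processing notes. Its version and how it corrected background, normalized and summarised were, in the sources used here, not given. The base of the log was inferred: as natural logs the top value would mean a signal of 847885, and a 16-bit scanner ends at 65535. The number of arrays limits the precision.

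Of 22097 probe sets, 20999 name 1 gene in the platform annotation (91 name several, 1007 are unnamed here). They were averaged per gene and used with no further scaling, in Python 3.11.15 with NumPy 2.4.6, pandas 2.3.3, SciPy 1.17.1 and statsmodels 0.14.6. Spans and promoters came from RefSeq by Entrez identifier or symbol. The scripts were tested on simulated data with an assumed noise and with differences planted in brighter genes only. Low values such as those of Cacna1c and Cacna1d were not covered. No statistical test was possible with 1 array per group. All 8 members are named, as are all genes above the floor in related lists of up to 5. Of longer lists, the 2 highest and 2 lowest are named. Pcp2, Rpl10a, the ends of the Purkinje list and the highest interneuron marker are named too. A planned search for channel genes with similar values was dropped, because it sets the levels of different probes against each other. The members and lists were chosen with earlier results of these data known. The alternatives tried were 3 other scalings, 3 other floors, the brightest probe set per gene and thresholds of 1.5-fold and 4-fold.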

Additional observations from a re-analysis of the deposited data

How the results depend on the processing

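Under the 8 alternatives that could change a value (each pore gene has 1 probe set, so taking the brightest could not), 42 of 46 recomputed values stayed within 1.5 times of the reported one, and none of the differences past 2-fold changed sign. The 24 recomputed differences of single pore genes each moved by less than 0.58 on the log2 scale. Subtracting the array medians moves every gene by the same amount, under that limit. Those single-gene values, also among the 46, therefore had to stay within it. With the floor at the 75th percentile (9.0), 3 pore genes were left, of which 1 (Cacna1g) passed 2-fold with TRAP higher and 1 (Cacna1e) with unbound higher, against 10.4% and 17.2% of all genes above that floor. The median difference over them was -0.016, as fewer genes passed that floor. At a threshold of 4-fold, 0 pore genes were higher in TRAP and 1 (Cacna1c, with its TRAP value under the floor) in unbound, against 0.74% and 4.34% of all genes. The median was -1.18 with the array medians subtracted, -1.22 after quantile normalization and -1.34 with a loess trend removed. No paired analysis was possible because each fraction has 1 array. The floor cannot stand in for detection calls, which limits Cacna1h and Cacna1i on both arrays and Cacna1c and Cacna1d in TRAP.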

Other observations

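Potassium channels that calcium entry opens include several partners of these pores. Of 8 such genes, 4 lay above the floor, of which 1 passed 2-fold with TRAP higher and 1 with unbound higher. The shares over all genes above the floor were 8.11% and 18.6%. Kcnma1, encoding the large-conductance BK channel, read 9.22 in TRAP and 8.19 in unbound, a difference of 1.04. Kcnn2, encoding the small-conductance channel SK2 of Purkinje cells, read 8.54 in TRAP and 7.91 in unbound, a difference of 0.63. Kcnn3, encoding SK3, read 6.22 in TRAP and 7.87 in unbound, a difference of -1.64, with the TRAP value under the floor. Kcnmb4, encoding a neuronal BK beta subunit, differed by -0.97. The list's median was -0.17, and it turned positive with the array medians subtracted (0.17) and after quantile normalization (0.10).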
